A study of Mus musculus with 40 samples.

Results

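The comparison set interscapular brown adipose tissue (BAT) of mice kept for 24 h in the cold, at 4 °C, against BAT of mice kept as long at thermoneutrality, 30 °C, and its members were the 10 libraries labelled BAT out of 40 in the series. Cold BAT held 5 libraries and thermoneutral BAT 5. All were labelled wild-type C57BL/6 adults on a standard diet, and both groups came from housing at 22 °C, so the thermoneutral animals had also changed temperature. No exact age, hour of sampling or animal number was given. Nothing says that the libraries of a group came from separate mice, so the p-values below measure the spread between these libraries.

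Brown fat makes heat. Noradrenaline from sympathetic nerves acts on adrenergic receptors, cyclic AMP rises, stored triglyceride is broken down to fatty acids, and these both fuel the mitochondria and open the uncoupling protein UCP1, which lets protons return without making ATP. At thermoneutrality this demand is low, and cold restores it within hours.

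Levels are given as CPM, counts scaled to a common library size and for library composition. They compare a gene between libraries and not genes with each other, since transcript length was not taken into account. Changes are log2 fold changes of cold over thermoneutral BAT with their standard error, and a gene is said to have risen or fallen where the quasi-likelihood test of edgeR gave a Benjamini-Hochberg adjusted p under 0.05 over all genes. Means are given ± SD over the 5 libraries of a group. For a gene said to have risen or fallen, the ranges of both groups were apart unless an overlap is stated. Of 15288 genes tested, 9200 passed (60.2%): 4614 rose (30.2%) and 4586 fell (30%). By more than 2-fold, 1472 rose (9.63%) and 1954 fell (12.8%), and for 7095 genes (46.4%) these ranges were apart. Genes with too few counts to test were left out, so 15288 of 37176 gene symbols with a count in any of the 40 libraries remained. The median log2 change of all genes was -0.038. The count of members that moved in each group of genes below has to be read against these shares. Because this is bulk tissue, fewer cells of a type and less RNA per cell cannot be told apart.

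Total counts ran from 50272736 to 84697511 per BAT library. Adipocyte markers were abundant throughout, with a summed level of 12439 to 14821 CPM in cold and 10725 to 12777 CPM in thermoneutral libraries. Fabp4 made up most of the cold sum, at 9274 ± 896 CPM in cold and 4405 ± 269 CPM in thermoneutral BAT, and of the 10 markers 2 rose and 5 fell (median log2 -0.30). Skeletal muscle markers varied within both groups, from 34.7 to 3464 CPM in cold and from 190.3 to 4453 CPM in thermoneutral libraries, and 0 of 15 rose and 0 fell (0 higher and 0 lower at an unadjusted p under 0.05 in edgeR, 0 and 0 with DESeq2, 0 and 0 with limma-voom). Cold replicate 4 had the lowest muscle sum and stood apart from the other cold libraries on the second principal component. Cold replicate 2 had the highest macrophage sum, 339 CPM, against 58.7 to 97.9 CPM in the other cold libraries and 129 to 185 CPM in thermoneutral ones. With all libraries, 1 of 11 macrophage markers rose and 0 fell (median log2 -0.25), and these were not counted without cold replicate 2. Of 7 hepatocyte markers tested 5 fell and 1 rose (median log2 -2.69). Their summed level was 58.0 to 165 CPM in cold and 36.2 to 94.6 CPM in thermoneutral libraries. Cyp2e1 made up most of both sums, at 101 ± 41.3 CPM in cold and 40.1 ± 14.5 CPM in thermoneutral BAT, so the sums do not follow the other markers. The part of hepatocyte markers in the results below was not tested. Cold replicate 1 stood above the other cold libraries in several stress genes described below. Some results that rest on one of these libraries are given with and without it, and others with all libraries only.

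**Figure D1:**
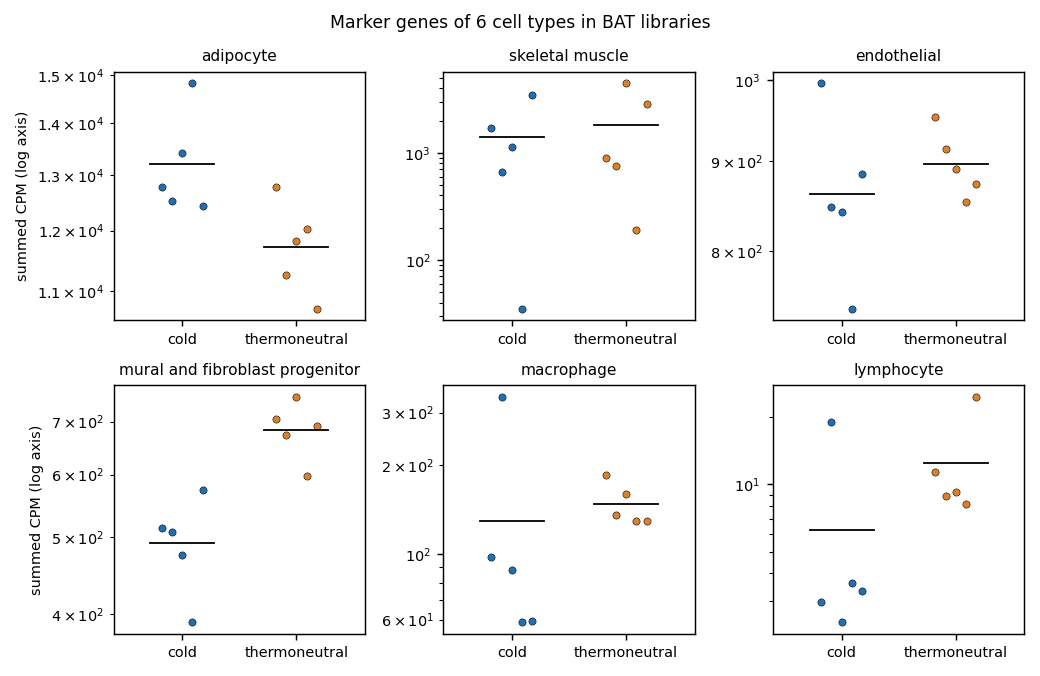
Summed level (CPM, log axis) of the marker genes of 6 cell types in each BAT library, cold left and thermoneutral right in each panel, with 1 point a library and a bar at the mean. Skeletal muscle sums span 34.7 to 3464 CPM in cold and 190.3 to 4453 CPM in thermoneutral libraries, while 1 cold library lies alone at 339 CPM for macrophages.

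Adrenergic receptor genes fell more often than they rose in cold BAT, while genes of cyclic AMP rose more often than they fell. Of 7 adrenergic receptors tested, 1 rose (14.3%) and 3 fell (42.9%), against 30.2% and 30% of all genes (median log2 -0.56). With 7 genes these shares rest on few members. Adrb3, the β3 receptor through which rodent brown adipocytes are mainly driven, had 42.4, 63.8, 90.5, 51.5 and 41.8 CPM in cold and 146, 116, 119, 263 and 80.6 CPM in thermoneutral libraries (log2 -1.32 ± 0.33, adjusted p = 0.00553), with 1 cold library inside the thermoneutral range. Adra1a, which signals through calcium, was the member that rose, 2.05-fold (log2 1.04 ± 0.20).

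Among genes that make or break cyclic AMP, 13 of 28 rose and 4 fell. The adenylyl cyclase Adcy3 had 991, 991, 1209, 1315 and 1484 CPM in cold libraries and 75.7, 85.3, 73.0, 75.0 and 89.0 CPM in thermoneutral ones, 15.1-fold higher with no overlap (log2 3.91 ± 0.14, adjusted p = 7.43e-09). Several phosphodiesterases, which degrade cyclic AMP, rose too: Pde7b averaged 107 ± 20.5 CPM in cold and 10.6 ± 0.742 CPM in thermoneutral BAT (log2 3.33 ± 0.13), Pde1c rose to 3.67 ± 0.300 CPM, against 0.145 ± 0.0460 CPM in thermoneutral BAT (log2 4.64 ± 0.22), and Pde3a rose 2.40-fold. Pde4b went the other way (log2 -1.01 ± 0.14), and Pde3b, which insulin uses to hold lipolysis down, did not pass (log2 0.072 ± 0.11, adjusted p = 0.584). Of 15 genes of protein kinase A and its anchors, 7 rose and 2 fell, or 1 fell without cold replicate 2 or 3 or thermoneutral replicate 2 or 3. The risers included the regulatory subunits Prkar2a (log2 1.14 ± 0.09) and Prkar1a (log2 0.97 ± 0.07). The anchoring protein Akap5 fell to 0.640 ± 0.148 CPM in cold, against 6.51 ± 1.39 CPM in thermoneutral BAT (log2 -3.34 ± 0.21).

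Of transcription regulators that a fresh stimulus induces, 8 of 28 were higher (28.6%) and 10 lower (35.7%) after 24 h. These shares were near the 30.2% and 30% of all genes. Nfil3 had 30.2, 23.9, 32.5, 31.8 and 34.8 CPM in cold and 6.84, 12.1, 6.80, 6.18 and 8.00 CPM in thermoneutral libraries (log2 1.94 ± 0.18), and the orphan receptor Nr4a3 rose 3.22-fold. Crem, a modulator of cyclic AMP response elements, rose 1.38-fold. The growth-signal regulators Btg2 (log2 -1.40 ± 0.25) and Klf6 (log2 -0.54 ± 0.08) fell. Egr1, another early-response gene, also fell (log2 -2.96 ± 0.60), to 3.16, 4.85, 3.92, 2.40 and 4.52 CPM in cold, against 9.75, 82.8, 21.8, 16.1 and 16.6 CPM in thermoneutral libraries, and without thermoneutral replicate 2, the highest, its change was -2.09 ± 0.25.

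Thyroid hormone acts together with noradrenaline in brown fat, where the deiodinase DIO2 converts the prohormone thyroxine to its active form. Dio2 had 601, 795, 1193, 1083 and 973 CPM in cold libraries, against 6.39, 22.6, 10.7, 10.1 and 3.83 CPM in thermoneutral ones, an 86.3-fold difference with a wide gap between the groups (log2 6.43 ± 0.51, adjusted p = 2.86e-06). Slc16a10, which carries thyroid hormone and aromatic amino acids across the membrane, rose 2.04-fold (log2 1.03 ± 0.13) and the receptor coactivator Ncoa1 rose 1.99-fold (log2 0.99 ± 0.11). The receptor genes did not follow. Thrb did not pass (log2 -0.20 ± 0.13, adjusted p = 0.209), and Thra was lower in the cold (log2 -0.41 ± 0.13, adjusted p = 0.0148) with overlapping groups, a call lost without cold replicate 1 (-0.33 ± 0.13, adjusted p = 0.0511). Of 9 genes of thyroid hormone action 4 rose and 2 fell, with 1 lower without cold replicate 1 and 4 without thermoneutral replicate 3 or 4, with library totals as the only scaling or with at least 1 CPM in 5 libraries. Thrsp, a thyroid-responsive gene of lipid synthesis, fell to 616 ± 273 CPM in cold BAT, against 1479 ± 381 CPM in thermoneutral BAT (log2 -1.26 ± 0.31), with overlap.

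The upstream region of Dio2 holds a full cyclic AMP response element, the 8 bases TGACGTCA that CREB binds. It is shown with those of Cycs, which encodes the electron carrier cytochrome c, and Trp53inp2, a regulator of autophagy. These 3 were among the named genes that rose more than 2-fold and hold the same 8 letters within 250 bases before their start. Not every named gene was searched for sequences to show. The sequences are RefSeq's for GRCm38.p6, 5′ to 3′ on the gene's strand and ending at the base before the transcription start, with the element in capitals. Dio2 is at chr12:90739039-90739288 on the minus strand with the element 95 bases before the start, Cycs at chr6:50566570-50566819 on the minus strand with it 169 bases before, and Trp53inp2 at chr2:155381606-155381855 on the plus strand with it 41 bases before.
Dio2: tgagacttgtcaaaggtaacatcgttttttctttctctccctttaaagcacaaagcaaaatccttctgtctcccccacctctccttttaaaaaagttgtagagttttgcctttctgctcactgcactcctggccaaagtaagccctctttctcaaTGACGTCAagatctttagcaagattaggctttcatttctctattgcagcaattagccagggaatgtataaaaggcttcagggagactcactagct
Cycs: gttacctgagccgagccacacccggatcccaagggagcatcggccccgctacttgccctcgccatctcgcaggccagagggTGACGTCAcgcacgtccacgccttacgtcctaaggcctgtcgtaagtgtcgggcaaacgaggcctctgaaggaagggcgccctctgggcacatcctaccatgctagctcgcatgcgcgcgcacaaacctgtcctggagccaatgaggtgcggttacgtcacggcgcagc
Trp53inp2: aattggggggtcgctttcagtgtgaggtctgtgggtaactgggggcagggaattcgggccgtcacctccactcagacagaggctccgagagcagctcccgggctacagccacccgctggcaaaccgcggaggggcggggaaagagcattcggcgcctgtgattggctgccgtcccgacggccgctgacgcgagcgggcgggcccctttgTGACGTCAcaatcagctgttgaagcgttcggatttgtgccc

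Cycs had 1545, 1469.6, 1542, 1539 and 1780.3 CPM in cold and 705, 737, 768, 730.0 and 710.4 CPM in thermoneutral libraries (log2 1.11 ± 0.08), and Trp53inp2 671, 534, 544, 689 and 700.2 CPM in cold and 192, 253, 259, 296 and 192 CPM in thermoneutral libraries (log2 1.40 ± 0.14), both without overlap. Across all tested genes the element was uncommon. It stood, on either strand, in 34 of 1051 promoters of genes that rose more than 2-fold (3.24%), in 32 of 1362 of genes that fell more than 2-fold (2.35%), and in 316 of all 11175 tested genes with a promoter sequence (2.83%). The shorter element TGACG was in 28.9%, 22.5% and 29.3% of the same 3 groups, and it counts every full element as well. Shares for the NR4A site AAAGGTCA were 1.81%, 0.881% and 1.2%, and for the site of estrogen-related receptors, TCAAGGTCA, 0.571%, 0.22% and 0.313%. The E-box CACGTG gave 11.1%, 8.74% and 9.67%, and the ATF4-type site TGATGNAAT 0.571%, 0.881% and 0.51%. The general promoter elements CCAAT (39.9%, 42.4% and 40.3%) and TATAAA (8.56%, 11% and 8.48%) were searched in the same way. No test was made on these shares.

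Transcription regulators of the brown fat state rose more often than they fell, 21 against 6 of 40 tested (median log2 0.30). The coactivator gene Ppargc1a, a driver of mitochondrial biogenesis, had 181, 276, 226, 143 and 297 CPM in cold libraries and 19.9, 24.8, 25.2, 22.3 and 31.8 CPM in thermoneutral ones (log2 3.18 ± 0.21, adjusted p = 4.4e-07). Its close relative Ppargc1b did not pass (log2 0.023 ± 0.15, adjusted p = 0.903), and its sign turned without thermoneutral replicate 3 (-0.067 ± 0.13) or 4 (-0.022 ± 0.15). All 3 estrogen-related receptors, which PGC-1 proteins coactivate on genes of respiration, rose: Esrra averaged 265 ± 3.33 CPM in cold and 113 ± 6.18 CPM in thermoneutral BAT (log2 1.23 ± 0.06), Esrrg rose 1.74-fold, and Esrrb rose 16.7-fold to 10.3 ± 2.58 CPM. Tfam, which packages and transcribes mitochondrial DNA, rose 1.94-fold (log2 0.96 ± 0.07), and Nr1h3, the oxysterol receptor LXRα, 2.34-fold (log2 1.22 ± 0.09). The identity genes Prdm16 (log2 0.048 ± 0.22, adjusted p = 0.867), Pparg (log2 -0.11 ± 0.14, adjusted p = 0.521) and Ppara (log2 -0.19 ± 0.17, adjusted p = 0.358) had overlapping groups and did not pass. Without single libraries the sign turned for Prdm16 (-0.045 ± 0.22 without thermoneutral replicate 3, -0.040 ± 0.22 without thermoneutral replicate 4 and -0.027 ± 0.22 without cold replicate 5) and for Pparg (0.035 ± 0.10 without thermoneutral replicate 5). Mlxipl, which encodes the carbohydrate-sensing regulator ChREBP, fell to 128 ± 28.4 CPM in cold, against 246 ± 71.2 CPM in thermoneutral BAT (log2 -0.94 ± 0.21).

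Genes of heat production itself rose along several routes. Ucp1 had 9856, 11716, 13491, 12603 and 12384 CPM in cold libraries, against 407, 899.9, 716, 768 and 383 CPM in thermoneutral ones, 18.9-fold higher (log2 4.24 ± 0.26), with every cold library far above every thermoneutral one. Ckb, the creatine kinase of the creatine cycle, had 593, 798, 859, 877 and 1035 CPM in cold and 26.6, 25.049, 22.3, 17.5 and 37.9 CPM in thermoneutral libraries (log2 5.01 ± 0.23, adjusted p = 3.54e-08), a clear separation. Alpl, a phosphatase proposed to act on phosphocreatine, rose 3.89-fold (log2 1.96 ± 0.17), while Gamt, the last enzyme of creatine synthesis, fell to 0.733 ± 0.265 CPM in cold, against 6.65 ± 2.21 CPM in thermoneutral BAT (log2 -3.18 ± 0.29). The calcium pump Atp2a2 had 567, 650.1, 641, 612 and 617 CPM in cold and 156, 160.3, 162, 146 and 137 CPM in thermoneutral libraries (log2 2.02 ± 0.08). Ucp2 and Ucp3, relatives of UCP1 without its established role in heat, rose 2.18-fold and 2.91-fold. In all, 10 of 21 genes of uncoupling and futile cycles rose and 4 fell.

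Genes used as markers of brown fat did not move as one block. Of 21 tested, 13 rose and 3 fell. Elovl3, an elongase of very long fatty acids, had 591, 709.8, 1299.6, 1488 and 946 CPM in cold and 1.36, 1.79, 6.10, 20.4 and 3.35 CPM in thermoneutral libraries. The groups were apart although thermoneutral levels spread widely (log2 7.25 ± 0.91), and without thermoneutral replicate 4 its change was 8.31 ± 0.63. The potassium channel gene Kcnk3 rose 2.89-fold (log2 1.53 ± 0.09), the nucleoside transporter gene Slc29a1 3.66-fold and Clstn3, calsyntenin 3, 3.86-fold. The droplet protein gene Cidea had 1155, 1037, 1032, 1046 and 1178 CPM in cold and 1365, 1294, 1474, 1242 and 1466 CPM in thermoneutral libraries, a modest fall without overlap (log2 -0.33 ± 0.08, adjusted p = 0.00496), and the purinergic receptor gene P2rx5 fell likewise (log2 -0.48 ± 0.12). Cox7a1, a cytochrome oxidase subunit of brown fat and muscle, did not pass (log2 0.20 ± 0.10, adjusted p = 0.0993), although it did without thermoneutral replicate 5 (0.28 ± 0.09, adjusted p = 0.0241).

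**Figure D2:**
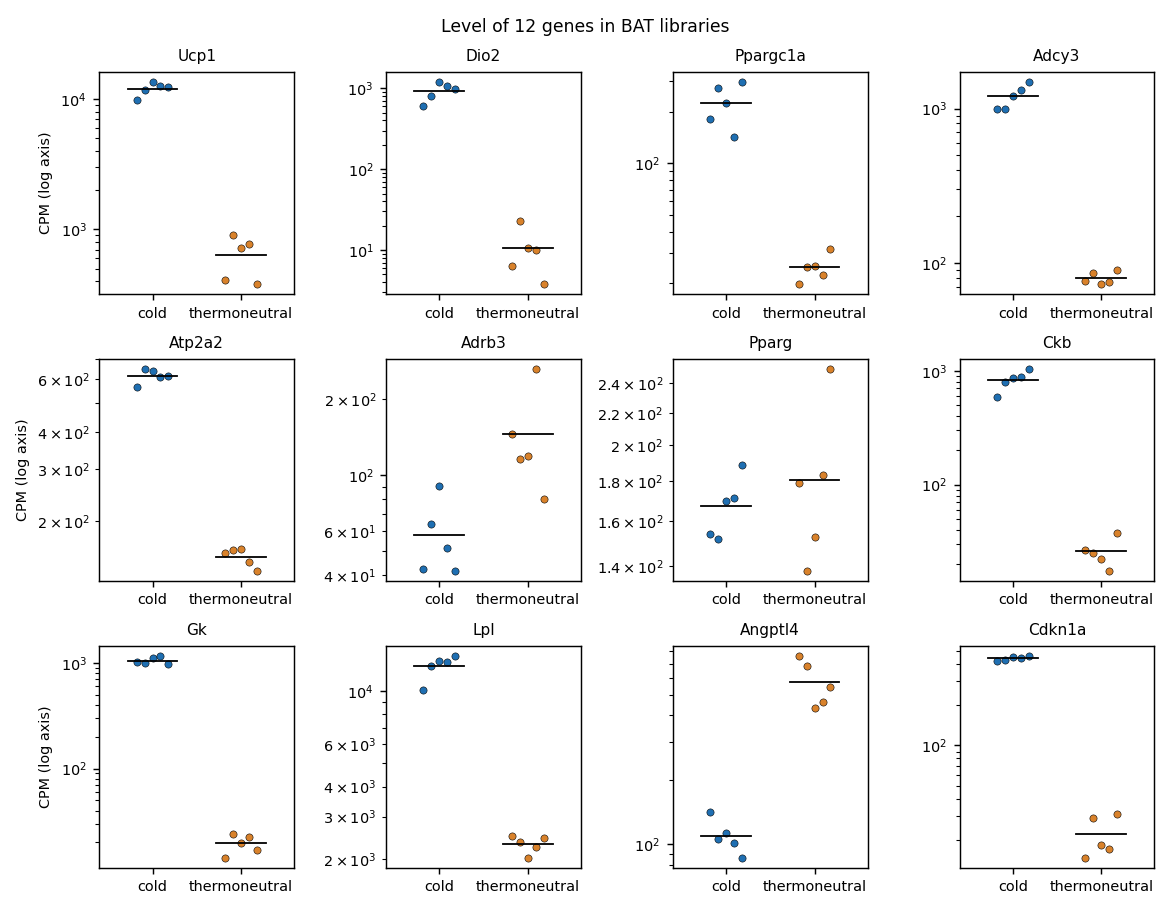
Level (CPM, log axis) of 12 genes in each BAT library, cold left and thermoneutral right in each panel, with 1 point a library and a bar at the mean. In 10 panels the groups are apart, whereas Adrb3 and Pparg overlap; cold Ucp1 lies between 9856 and 13491 CPM and thermoneutral Ucp1 between 383 and 899.9 CPM.

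Genes for taking up blood-borne lipid were among those with the largest gains in counts. Lpl, the lipase that frees fatty acids from circulating triglyceride, had 10122, 12763, 13387, 13205 and 14027 CPM in cold libraries and 2491, 2348, 2024, 2243 and 2449 CPM in thermoneutral ones, 5.50-fold higher (log2 2.46 ± 0.12, adjusted p = 3.32e-08). Angptl4, an inhibitor of that lipase, went the opposite way, with 141, 106, 112, 101 and 86.2 CPM in cold and 759.8, 683, 434, 460.0 and 544 CPM in thermoneutral libraries (log2 -2.40 ± 0.18, adjusted p = 8.14e-07). Neither pair of groups overlapped. Gpihbp1, which holds the lipase on the capillary wall, had overlapping groups and did not pass (log2 0.29 ± 0.12, adjusted p = 0.059), but it did without cold replicate 3 (adjusted p = 0.0431) or cold replicate 4 (adjusted p = 0.0136), and with all libraries under DESeq2 (adjusted p = 0.0316), RLE size factors in edgeR (adjusted p = 0.0429) or a muscle marker covariate (adjusted p = 0.0271). Lipg, endothelial lipase, rose 5.94-fold (log2 2.57 ± 0.16) and the lipoprotein receptor gene Vldlr 1.94-fold. The fatty acid carrier Cd36 averaged 2655 ± 229 CPM in cold and 1282 ± 129.8 CPM in thermoneutral BAT (log2 1.05 ± 0.10), and Acsl1, which activates fatty acids with coenzyme A, 2974 ± 265 CPM in cold and 919 ± 134 CPM in thermoneutral BAT (log2 1.69 ± 0.12). The intracellular binding proteins Fabp3 (7.95-fold) and Fabp4 (2.11-fold) rose as well. Mfsd2a, a lysophospholipid transporter, had 60.6, 69.5, 114, 154 and 134 CPM in cold libraries and at most 0.208 CPM in a thermoneutral one. Over the 31 genes of lipase action and fatty acid uptake tested, 13 rose and 6 fell, and 12 rose more than 2-fold.

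In glycerol use and triglyceride assembly 16 of 25 genes rose, 11 of them more than 2-fold, and 1 fell (median log2 0.86). The number that fell was 2 with DESeq2, limma-voom, no low-count filter or at least 1 CPM in 5 libraries, and without cold replicate 1 or 3. Gk, glycerol kinase, which lets brown fat reuse glycerol, had 1017, 988, 1111, 1162 and 972 CPM in cold and 14.3, 24.3, 19.6, 22.5 and 17.0 CPM in thermoneutral libraries (log2 5.75 ± 0.16, adjusted p = 2.42e-09). Gpd1, which makes glycerol 3-phosphate from a glycolytic intermediate, had 6339.7, 7382, 8935, 9491 and 10989 CPM in cold and 3922, 3968, 3743, 4038 and 2164 CPM in thermoneutral libraries (log2 1.27 ± 0.20). The acyltransferases Agpat1 (log2 1.26 ± 0.08) and Agpat5 (log2 1.24 ± 0.06) rose, and Dgat1, one of the enzymes of the last step, averaged 430.4 ± 32.2 CPM in cold and 105 ± 15.3 CPM in thermoneutral BAT (log2 2.03 ± 0.11). Dgat2, the other one, did not pass (log2 -0.082 ± 0.16, adjusted p = 0.678; 0.086 ± 0.08 without cold replicate 1). Pck1, the entry enzyme of glyceroneogenesis, did not pass either (log2 -0.24 ± 0.21, adjusted p = 0.344).

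Genes of lipolysis and of the droplet coat moved in both directions, with 12 of 25 higher and 9 lower. Pnpla2, which encodes the triglyceride lipase ATGL, averaged 1596 ± 265 CPM in cold and 2382 ± 278 CPM in thermoneutral BAT (log2 -0.58 ± 0.13, adjusted p = 0.0022), and Lipe, hormone-sensitive lipase, 854 ± 81.0 CPM in cold and 1205 ± 203 CPM in thermoneutral BAT (log2 -0.50 ± 0.12, adjusted p = 0.00436). Both were lower, with groups that overlapped. Plin2, a coat protein of droplets, had 2197, 1412, 1457, 1558 and 1449.8 CPM in cold and 309, 257, 338, 564 and 205 CPM in thermoneutral libraries (log2 2.27 ± 0.26), and Plin5, which ties droplets to mitochondria, rose 3.52-fold (log2 1.81 ± 0.09). Abhd6, a monoacylglycerol lipase, rose 2.68-fold and Fitm2, needed for droplet formation, 2.46-fold. Receptors for metabolites diverged. Ffar4, a receptor for long-chain fatty acids, had 30.9, 61.1, 59.9, 38.1 and 49.0 CPM in cold and 2.20, 4.81, 5.14, 4.43 and 3.53 CPM in thermoneutral libraries (log2 3.57 ± 0.27), whereas Hcar2, the niacin and ketone receptor that restrains lipolysis, had 0.371, 0.510, 0.629, 0.467 and 0.803 CPM in cold and 14.1, 10.4, 4.73, 5.29 and 5.59 CPM in thermoneutral libraries (log2 -3.85 ± 0.37).

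For the entry of fatty acids into mitochondria, 8 of 13 genes rose and 3 fell (median log2 0.72). Cpt1a, the liver-type carnitine palmitoyltransferase, had 105, 83.1, 75.3, 84.8 and 80.4 CPM in cold and 15.1, 13.1, 11.1, 14.4 and 11.7 CPM in thermoneutral libraries (log2 2.72 ± 0.12), and Cpt1b, the muscle and brown fat type, averaged 939 ± 90.0 CPM in cold and 561 ± 36.4 CPM in thermoneutral BAT (log2 0.74 ± 0.09). Slc25a20, the carnitine carrier, rose 2.42-fold, and Crat, which makes acetylcarnitine, 2.11-fold. Mlycd, which removes the malonyl-CoA that blocks CPT1, had 208, 232, 232, 276 and 232 CPM in cold and 50.9, 59.5, 57.6, 55.9 and 59.8 CPM in thermoneutral libraries (log2 2.06 ± 0.09). Acaca, which makes malonyl-CoA, had 329, 420.4, 653, 803 and 1175 CPM in cold and 2418, 2285, 2397, 3543 and 1204 CPM in thermoneutral libraries (log2 -1.81 ± 0.37). Acacb, the carboxylase whose malonyl-CoA acts at CPT1, had 887, 1037, 1337, 1564 and 1337 CPM in cold and 809.6, 1136, 763, 938 and 747 CPM in thermoneutral libraries, higher with overlapping groups (log2 0.49 ± 0.17, adjusted p = 0.0239), a call lost without thermoneutral replicate 1, 3 or 5 or cold replicate 4 (adjusted p between 0.054 and 0.0595). The 2 carboxylase genes thus moved in opposite directions.

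Of the enzymes of mitochondrial β-oxidation 7 of 22 were higher (31.8%) and 8 lower (36.4%), near the 30.2% and 30% of all genes. Etfdh, which passes electrons from β-oxidation to ubiquinone, rose 2.50-fold (log2 1.32 ± 0.11), and the long-chain enzymes Hadha (log2 0.70 ± 0.10) and Acadvl (log2 0.45 ± 0.08) rose modestly. The thiolase Acaa2 (log2 -0.78 ± 0.09), the isomerase Eci1 (log2 -0.82 ± 0.09) and Acad12 (log2 -1.53 ± 0.15) fell. Thioesterases, which free fatty acids from coenzyme A, and peroxisomal oxidation had 18 of 30 higher, 14 of them more than 2-fold, and 4 lower (median log2 0.95, with Acot5 at its fitted value or at the bound given here). Acot1 had 61.7, 35.7, 31.9, 38.2 and 39.4 CPM in cold and 0.232, 0.532, 0.365, 0.295 and 0.419 CPM in thermoneutral libraries (log2 6.79 ± 0.26). Acot5 had 5.58 ± 1.27 CPM in cold BAT and no count in any thermoneutral library, at least 618-fold higher against a floor of 3 counts over the 5 thermoneutral libraries. Acot1 and Acot5 lie in a cluster of near-identical genes, so how reads were divided among them is uncertain. Acot8, a peroxisomal thioesterase, rose 5.16-fold, and Them4 3.67-fold. The peroxisomal importer gene Abcd3 averaged 503 ± 20.5 CPM in cold and 166 ± 17.3 CPM in thermoneutral BAT (log2 1.60 ± 0.08), while its relative Abcd2 fell (log2 -2.48 ± 0.27). Slc25a17, the peroxisomal carrier of coenzyme A and nucleotides, had 224, 259, 273, 279 and 257 CPM in cold and 31.3, 33.5, 31.8, 31.1 and 27.9 CPM in thermoneutral libraries (log2 3.06 ± 0.08).

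**Figure D3:**
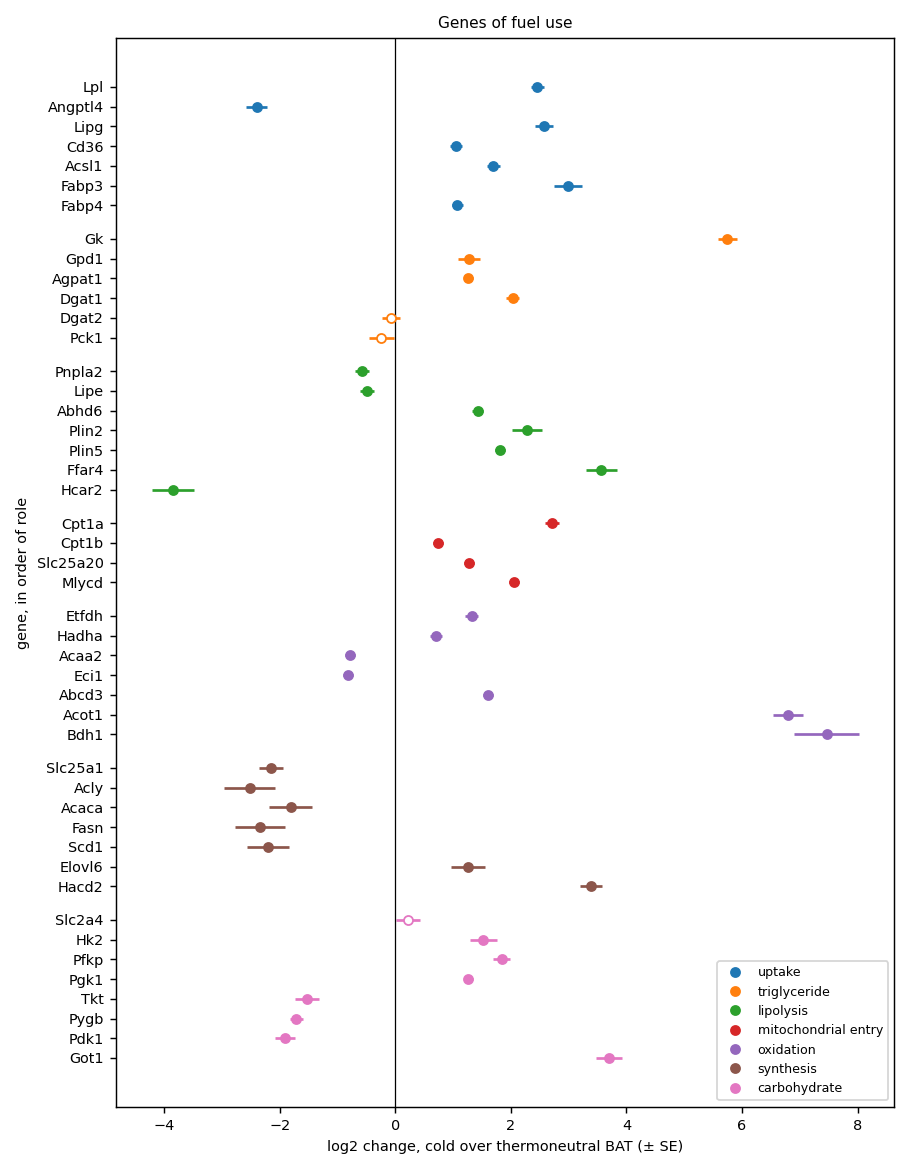
Log2 change of cold over thermoneutral BAT with its standard error for genes of lipid uptake, triglyceride handling, oxidation, synthesis and carbohydrate use, ordered by role; filled points passed an adjusted p under 0.05 and open points did not. Gk stands at 5.75 and Lpl at 2.46, while Pnpla2 (-0.58) and Lipe (-0.50) lie below 0 and Acly (-2.52) and Fasn (-2.35) far below it.

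Ketone handling changed in few but large steps. Bdh1, which interconverts the ketone bodies, had 30.8, 22.1, 38.7, 82.2 and 90.0 CPM in cold libraries and at most 0.447 CPM in a thermoneutral one (log2 7.47 ± 0.56). The monocarboxylate transporter Slc16a1 rose 2.94-fold (log2 1.56 ± 0.13) while Slc16a7 had 2.90, 3.53, 2.53, 2.69 and 2.92 CPM in cold and 24.6, 26.2, 30.0, 28.2 and 22.9 CPM in thermoneutral libraries (log2 -3.18 ± 0.11). Oxct1, which commits ketone bodies to oxidation, did not pass (log2 0.11 ± 0.19, adjusted p = 0.626). Of 11 genes tested 3 rose and 2 fell.

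Genes of fatty acid synthesis and elongation moved in both directions. Of 23 genes 9 rose and 10 fell. Fasn, fatty acid synthase, had 1130.0, 1558, 2501, 3274 and 4559 CPM in cold and 13745, 11113, 14427, 21054 and 5849 CPM in thermoneutral libraries (log2 -2.35 ± 0.43, adjusted p = 7.70e-04). Acly, which supplies cytosolic acetyl-CoA, had 222, 267, 363, 412 and 788 CPM in cold and 2387, 1705, 2545, 4182 and 974 CPM in thermoneutral libraries (log2 -2.52 ± 0.45), and Slc25a1, the citrate exporter of mitochondria, fell 4.46-fold. For Fasn and Acly the groups did not overlap but varied widely, and thermoneutral replicate 5 was the lowest thermoneutral library in both. Scd1, the main Δ9 desaturase, had 7066, 5867, 6276, 6838 and 4899.6 CPM in cold and 9042, 22138, 37937, 48238 and 25489.6 CPM in thermoneutral libraries (log2 -2.21 ± 0.37), the largest loss in CPM of any nuclear gene that fell without overlap. The elongation genes Elovl4 (6.81 ± 1.67 CPM in cold and 0.181 ± 0.0917 CPM in thermoneutral BAT), Elovl6 (log2 1.25 ± 0.29, with overlap) and Hacd2 rose, and Hacd2, the dehydratase of the elongation cycle, had 337, 399, 540.1, 594 and 628 CPM in cold and 43.6, 43.4, 49.6, 59.7 and 42.4 CPM in thermoneutral libraries (log2 3.39 ± 0.19).

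Cholesterol genes did not move in one direction: 11 of 25 rose and 5 fell, and 3 fell without cold replicate 2 and 2 without cold replicate 5. The early enzyme gene Hmgcs1 rose (log2 1.51 ± 0.13). Hsd17b7 had 17.7, 18.9, 34.5, 90.8 and 44.8 CPM in cold and 3.72, 3.56, 6.54, 5.76 and 6.36 CPM in thermoneutral libraries (log2 2.99 ± 0.48). Fdft1, squalene synthase, fell to 9.998, 16.8, 23.8, 45.1 and 32.3 CPM in cold libraries, against 156, 147, 105, 91.3 and 135 CPM in thermoneutral ones (log2 -2.31 ± 0.37). These changes lie on both sides of 0 within one pathway.

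Hexokinase and phosphofructokinase genes were among those that rose in glycolysis. Of 33 genes of transport and glycolysis 14 rose and 6 fell, or 2 fell where at least 1 CPM in 5 libraries was required. Hk2, the insulin-sensitive hexokinase, had 327, 409, 523, 572 and 639 CPM in cold and 165, 143, 192, 251 and 109.5 CPM in thermoneutral libraries (log2 1.52 ± 0.24), and Pfkp, a phosphofructokinase, 252, 272, 263, 282 and 233 CPM in cold and 76.4, 62.5, 69.8, 100.0 and 55.2 CPM in thermoneutral libraries (log2 1.84 ± 0.14). Pgk1 (log2 1.26 ± 0.08), Pgam1 (log2 1.08 ± 0.11) and Aldoa (log2 0.72 ± 0.15) rose. The transporter Slc2a4 (GLUT4) did not pass (log2 0.22 ± 0.20, adjusted p = 0.371), and the fructose transporter Slc2a5 fell (log2 -3.92 ± 0.84), to 1.29, 0.869, 0.592, 1.02 and 6.04 CPM in cold, against 26.6, 12.2, 39.4, 63.1 and 7.80 CPM in thermoneutral libraries. Without cold replicate 5 its change was -4.94 ± 0.72. In glycogen and pentose phosphate metabolism 11 of 31 rose (35.5%) and 9 fell (29.0%), against 30.2% and 30% of all genes. The glycogen synthase Gys2 rose 3.11-fold (log2 1.64 ± 0.30) and the glycogen phosphorylase Pygb fell 3.28-fold (log2 -1.71 ± 0.11). Tkt, a transketolase of the pentose route, had 621, 1117, 1300.1, 1141 and 1273 CPM in cold and 3686, 2932, 3256, 3644 and 2163 CPM in thermoneutral libraries (log2 -1.52 ± 0.21).

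At the entry of pyruvate, Pdk1, a kinase that switches pyruvate dehydrogenase off, had 19.0, 31.1, 26.8, 29.1 and 38.3 CPM in cold and 137, 112, 106, 98.2 and 90.0 CPM in thermoneutral libraries (log2 -1.91 ± 0.17), while the phosphatase Pdp2, which switches it on, rose 2.38-fold (log2 1.25 ± 0.20). The pyruvate carrier Mpc2 rose 2.11-fold and the catalytic subunit Pdha1 fell (log2 -0.53 ± 0.12). Pdk4 did not pass (log2 0.17 ± 0.24, adjusted p = 0.549). Of 14 such genes 4 rose (28.6%), and 7 without cold replicate 1, and 3 fell (21.4%), against 30.2% and 30% of all genes. In the tricarboxylic acid cycle and its shuttles 8 of 24 rose (33.3%) and 9 fell (37.5%), against 30.2% and 30% of all genes. Got1, the cytosolic transaminase of the malate-aspartate shuttle, had 199.8, 176, 179, 185 and 209 CPM in cold and 12.0, 9.57, 21.2, 11.5 and 19.0 CPM in thermoneutral libraries (log2 3.70 ± 0.22). The isocitrate dehydrogenases parted: Idh3a, the NAD-linked form, rose 2.24-fold (log2 1.16 ± 0.09) and Idh2, the NADP-linked mitochondrial form, fell 2.81-fold (log2 -1.49 ± 0.11).

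**Figure D4:**
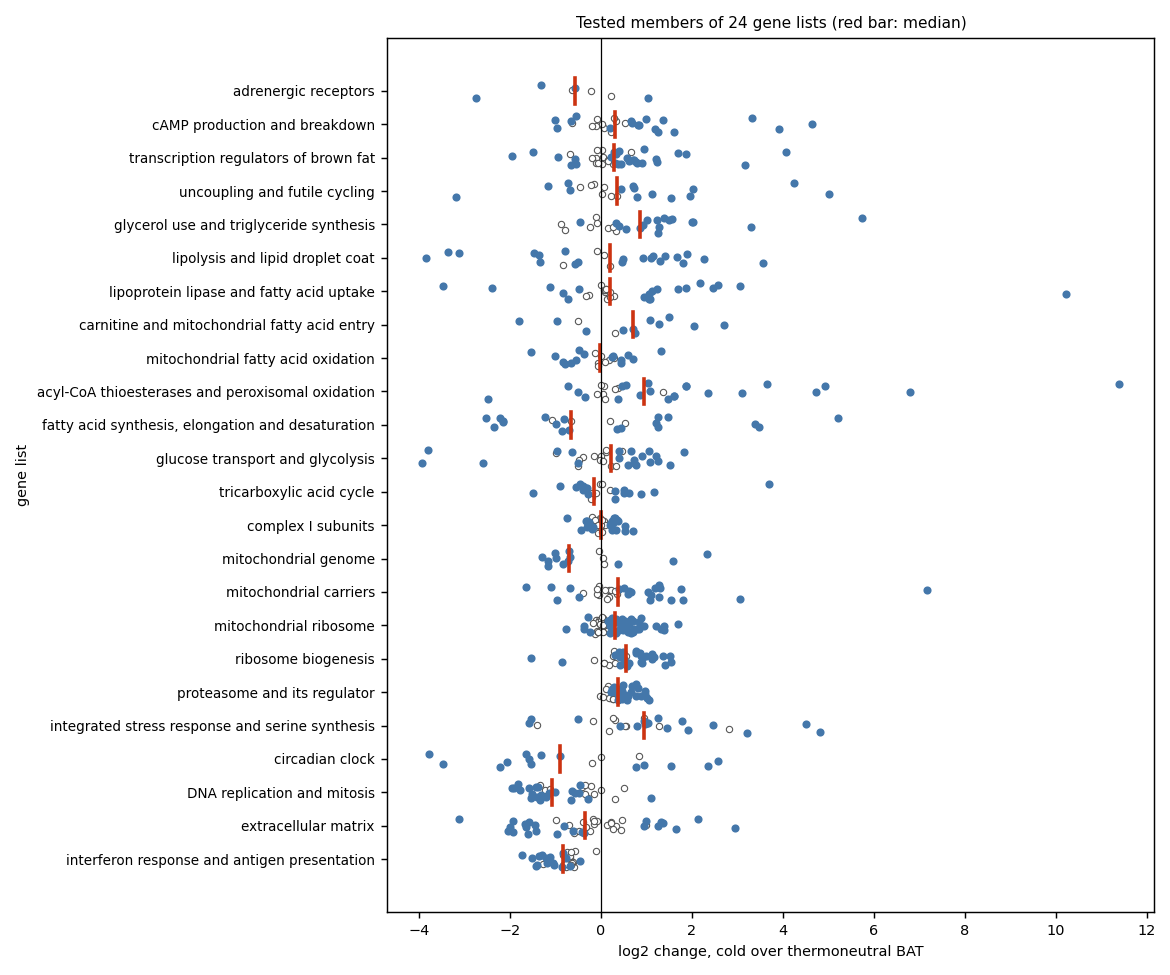
Log2 change of cold over thermoneutral BAT for every tested member of 24 gene lists, 1 point a gene, with the list median as a bar; filled points passed an adjusted p under 0.05. Medians run from -1.06 for DNA replication and mitosis to 0.95 for the integrated stress response, and the interferon list is the one drawn with every member below 0.

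Subunit genes of complex I changed by less than 2-fold, while most transcripts of the mitochondrial genome fell. Complex I had 13 of 36 subunits higher and 8 lower, and all its changes lay between -0.75 and 0.71. Without cold replicate 3, 5 were lower. Examples were Ndufb6 (log2 0.71 ± 0.07) and Ndufa7 (log2 -0.75 ± 0.08). In complexes III, IV and V and cytochrome c, 11 of 39 rose, with Cycs the highest, and 4 fell, or 2 without cold replicate 1, 2 or 5 or with no low-count filter and 1 without cold replicate 3. Transcripts of the mitochondrial genome took 22.1 ± 1.85% of counts in cold and 26.0 ± 3.33% in thermoneutral BAT (SD, n = 5 each). The ranges overlapped, at 20.3 to 24.9% in cold and 22.3 to 31.3% in thermoneutral libraries, and the share was not tested. Of its 15 transcripts 9 fell and 3 rose. mt-Co1, a cytochrome oxidase subunit, had 35828, 50462, 40532, 49231 and 57870.5 CPM in cold and 89335, 99701, 81831, 69773 and 127464 CPM in thermoneutral libraries (log2 -1.001 ± 0.19). The ribosomal RNAs mt-Rnr2 (log2 2.33 ± 0.23) and mt-Rnr1 (log2 1.58 ± 0.21) went the other way. Capture by poly(A) tails and nuclear copies of these sequences bear on such counts, and their part was not tested.

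Among factors that build mitochondria, of 78 proteins of the mitochondrial ribosome 47 rose (median log2 0.32), for example Mrpl20 (log2 1.70 ± 0.14) and Mrps23, which averaged 102 ± 1.65 CPM in cold and 38.7 ± 4.78 CPM in thermoneutral BAT. The number that fell was 5, or 3 without cold replicate 3, 4 or 5 or thermoneutral replicate 3 or 4 or with no low-count filter. Among mitochondrial carriers 17 of 34 rose, 12 of them more than 2-fold, and 5 fell, or 3 without cold replicate 1 or 4 or thermoneutral replicate 1 or with no low-count filter. The orphan carrier Slc25a34 had 172, 187, 192, 237 and 230.1 CPM in cold and 0.794, 1.40, 1.31, 0.625 and 3.05 CPM in thermoneutral libraries (log2 7.16 ± 0.42, adjusted p = 3.81e-07), and Slc25a44, the carrier of branched-chain amino acids in brown fat mitochondria, rose 1.52-fold with overlapping groups (log2 0.61 ± 0.15). Slc25a23, a calcium-regulated carrier of ATP-Mg, fell 3.14-fold. In mitochondrial dynamics and mitophagy 14 of 24 rose, among them the fusion genes Mfn1 (log2 0.67 ± 0.06) and Mfn2 (log2 0.44 ± 0.09) and the fission gene Mtfp1 (log2 0.92 ± 0.09). The mitophagy gene Bnip3 (log2 -1.32 ± 0.13) was among the 5 that fell.

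Ribosome biogenesis, proteasome and endoplasmic reticulum folding genes rose far more often than they fell, whereas cytosolic ribosomal protein genes did not. Of 35 genes of ribosome biogenesis 25 rose and 2 fell (median log2 0.55), or 1 fell without cold replicate 2, 3 or 5 or with no low-count filter. The risers included Rrp12 (log2 1.54 ± 0.17), Nop2 (log2 1.53 ± 0.12) and Nolc1 (log2 1.41 ± 0.10). Of 35 proteasome genes 25 rose and 0 fell (median log2 0.39), with 0 lower at an unadjusted p under 0.05 in edgeR, 0 lower with DESeq2 and 0 with limma-voom. Psmc4 averaged 96.1 ± 9.73 CPM in cold and 46.0 ± 8.96 CPM in thermoneutral BAT, and Ddi2, the protease that activates the proteasome's regulator, rose 2.02-fold. Genes of endoplasmic reticulum folding rose in 14 of 23 cases (median log2 0.69), and 1 fell, or 4 without cold replicate 1. The secreted chaperone Manf had 89.0, 72.2, 66.7, 56.9 and 54.0 CPM in cold and 13.1, 12.1, 14.4, 14.8 and 11.9 CPM in thermoneutral libraries (log2 2.35 ± 0.14), the chaperone Hspa5 rose 2.39-fold, and Xbp1, a regulator of the folding response, fell (log2 -0.76 ± 0.15). Among heat shock and cold shock genes 15 of 26 rose and 2 fell. Hspa4 (log2 1.23 ± 0.10) and the mitochondrial cochaperone Dnaja3 (log2 1.16 ± 0.08) were higher, and Trap1, a mitochondrial chaperone, was lower (log2 -0.51 ± 0.07). Of 76 cytosolic ribosomal protein genes 9 rose and 11 fell, and both counts moved with the processing and with single libraries. With library totals as the only scaling 5 rose and 4 fell, with at least 1 CPM in 5 libraries 5 rose, and with the muscle marker covariate 16 rose. The number higher was 15 without cold replicate 4 and 5 without thermoneutral replicate 2, 3 or 4. The number lower was 20 without cold replicate 1, and between 3 and 7 without cold replicate 2, 3, 4 or 5 or thermoneutral replicate 1, 3 or 5.

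In the integrated stress response 14 of 27 genes rose and 3 fell, or 1 without cold replicate 5. Cth, which makes cysteine, had 24.5, 20.4, 17.8, 19.6 and 7.19 CPM in cold and 1.92, 1.93, 2.28, 1.32 and 2.21 CPM in thermoneutral libraries (log2 3.21 ± 0.30), and Slc3a2, the shared chain of several amino acid transporters, rose 5.52-fold. Atf4, the central regulator, had 251, 128, 123, 77.3 and 111 CPM in cold and 30.3, 38.4, 61.3, 64.9 and 54.9 CPM in thermoneutral libraries (log2 1.47 ± 0.32, adjusted p = 0.00265). Cold replicate 1 was the highest library for Atf4. It stood further apart for Gdf15, a stress-induced hormone, with 52.8, 5.29, 3.44, 2.21 and 2.88 CPM in cold and 0.149, 0.420, 0.671, 0.538 and 0.559 CPM in thermoneutral libraries. The log2 change of Gdf15 was 4.83 ± 1.12 with all libraries and 2.90 ± 0.39 without cold replicate 1 (adjusted p = 9.47e-05). Psat1, an enzyme of serine synthesis, did not pass (log2 0.95 ± 0.66, adjusted p = 0.241; -0.036 ± 0.38 without cold replicate 1).

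Defence against oxidants and metals rose in 16 of 28 genes and fell in 9. The metallothionein Mt2 had 98.5, 70.5, 99.4, 80.3 and 155 CPM in cold and 10.4, 8.29, 17.0, 20.4 and 21.4 CPM in thermoneutral libraries (log2 2.699 ± 0.31), and Mt1 rose 3.46-fold (log2 1.79 ± 0.20), together with Slc39a14, an importer of zinc and iron (log2 1.91 ± 0.13). Prdx6 (log2 1.20 ± 0.07) and the mitochondrial enzymes Sod2 (log2 0.93 ± 0.08) and Txn2 (log2 0.95 ± 0.08) rose. Gpx3, the secreted glutathione peroxidase, and Txnip, the thioredoxin inhibitor that also limits glucose uptake, fell 3.29-fold and 4.12-fold. In iron and heme metabolism 8 of 24 rose (33.3%) and 6 fell (25%), against 30.2% and 30% of all genes. The ferritin chain Fth1 fell to 1089 ± 76.8 CPM in cold, against 1825 ± 154 CPM in thermoneutral BAT (log2 -0.74 ± 0.09), and Steap4, a metalloreductase, fell 5.14-fold. Uros, an enzyme of heme synthesis, rose 2.11-fold.

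Clock genes moved in both directions, with 9 of 17 lower and 5 higher in the cold (median log2 -0.90). Dbp, an output regulator of the clock, had 5.31, 5.23, 3.29, 3.61 and 4.18 CPM in cold and 55.5, 32.7, 84.2, 80.8 and 45.1 CPM in thermoneutral libraries (log2 -3.78 ± 0.29). Per3 fell 11.1-fold (log2 -3.47 ± 0.19), Nr1d1 3.87-fold (log2 -1.95 ± 0.15), Nr1d2 4.62-fold and Tef 2.91-fold, whereas Npas2, a partner of the core activator, rose 6.01-fold (log2 2.59 ± 0.21). Per2 did not pass (log2 -0.19 ± 0.25, adjusted p = 0.539). The hour of sampling of either group is not given, so temperature and time of day cannot be told apart for these genes. Genes that glucocorticoids induce were higher in 10 of 15 cases and lower in 3, or lower in 5 without thermoneutral replicate 5. The receptor cochaperone Fkbp5 had 28.9, 36.5, 18.7, 20.6 and 29.7 CPM in cold and 4.34, 3.82, 4.04, 4.91 and 4.83 CPM in thermoneutral libraries (log2 2.62 ± 0.18), and Zbtb16 rose 4.21-fold (log2 2.07 ± 0.22).

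In DNA replication and mitosis 21 of 34 genes fell, 15 of them more than 2-fold (median log2 -1.06), against 30% of all genes. Mcm4, part of the replicative helicase, averaged 3.62 ± 0.461 CPM in cold and 7.30 ± 0.682 CPM in thermoneutral BAT (log2 -1.01 ± 0.11). Mki67, a marker of dividing cells, had 0.839, 4.67, 3.35, 0.997 and 1.28 CPM in cold and 12.7, 6.68, 4.94, 8.11 and 5.35 CPM in thermoneutral libraries (log2 -1.77 ± 0.50, adjusted p = 0.0114). The member that rose was Rrm1, a subunit of ribonucleotide reductase (log2 1.10 ± 0.13), joined by 1 more without cold replicate 3 or thermoneutral replicate 4. Of 23 cell cycle brakes and p53 targets 7 rose (30.4%) and 10 fell (43.5%), against 30.2% and 30% of all genes. Cdkn1a, the inhibitor p21, had 422, 431, 451, 443 and 459.6 CPM in cold and 14.7, 29.1, 18.1, 17.1 and 30.9 CPM in thermoneutral libraries (log2 4.33 ± 0.22, adjusted p = 5.88e-08). Gadd45g had 141, 114, 154, 132 and 121 CPM in cold and 6.06, 20.8, 7.26, 6.94 and 5.05 CPM in thermoneutral libraries (log2 3.84 ± 0.40), while its relative Gadd45b fell 7.54-fold and the inhibitor gene Cdkn1b fell 2.00-fold.

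Secreted factors were divided, 7 of 35 higher (20%) and 9 lower (25.7%), against 30.2% and 30% of all genes. Bmp8b, a growth factor of thermogenic fat, had 20.3, 28.6, 28.4, 28.4 and 32.8 CPM in cold and 0.463, 0.0841, 0.0471, 0.243 and 0 CPM in thermoneutral libraries (log2 7.39 ± 0.53), and without thermoneutral replicate 1 its change was 8.21 ± 0.46. Among adipokine genes, Lep fell, with 9.42, 7.99, 4.20, 6.98 and 2.77 CPM in cold and 35.5, 48.0, 89.2, 87.3 and 41.4 CPM in thermoneutral libraries (log2 -3.26 ± 0.41). Adipoq, adiponectin, fell as well, with 120.2, 204, 199, 266 and 239.8 CPM in cold and 904, 719, 655, 633 and 655 CPM in thermoneutral libraries (log2 -1.79 ± 0.19). Npr3, the clearance receptor for natriuretic peptides, rose 6.08-fold (log2 2.60 ± 0.30). Nrg4, a neuregulin of brown fat, did not pass (log2 0.27 ± 0.15, adjusted p = 0.132), although it did without cold replicate 1 (0.40 ± 0.12, adjusted p = 0.0168). In insulin signalling 7 of 26 genes rose (26.9%) and 10 fell (38.5%), against 30.2% and 30% of all genes. The receptor Insr rose 2.19-fold (log2 1.13 ± 0.12), whereas its substrates Irs1 (log2 -0.98 ± 0.13) and Irs3 (log2 -1.95 ± 0.25) and the adaptor Grb14 (log2 -1.91 ± 0.21) fell. Foxo1, which insulin restrains, rose 2.67-fold.

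In amino acid uptake and branched-chain breakdown as many genes rose as fell, 10 and 10 of 35 (28.6% each), near the 30.2% and 30% of all genes. Slc43a2, a carrier of large neutral amino acids, had 202, 272, 266, 326 and 358 CPM in cold and 27.9, 23.7, 20.9, 22.7 and 17.4 CPM in thermoneutral libraries (log2 3.66 ± 0.18). Slc7a8, which pairs with the Slc3a2 chain, had 26.3, 83.0, 64.5, 109.9 and 87.2 CPM in cold and 3.01, 2.65, 3.19, 2.41 and 6.86 CPM in thermoneutral libraries (log2 4.36 ± 0.45), with cold replicate 1 lowest among the cold libraries. Dbt, a core subunit of branched-chain ketoacid dehydrogenase, rose 3.13-fold, and Slc1a5, a glutamine carrier, fell 2.32-fold.

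Marker genes of endothelial cells and of mural cells and fibroblast progenitors moved in both directions. Endothelial marker sums overlapped, at 742 to 996 CPM in cold and 853 to 953 CPM in thermoneutral libraries, although 4 of 11 markers rose and 6 fell. Of 28 vessel genes 9 rose (32.1%) and 13 fell (46.4%), against 30.2% and 30% of all genes. Without cold replicate 5, 8 of them fell. Eng, endoglin, rose 2.86-fold (log2 1.52 ± 0.10) and Kdr, the main VEGF receptor, 1.40-fold, while Vegfb, a growth factor of this family, fell 1.94-fold. Aplnr, the apelin receptor, fell to 6.43 ± 1.89 CPM in cold, against 51.2 ± 8.41 CPM in thermoneutral BAT (log2 -2.99 ± 0.21). Markers of mural cells and fibroblast progenitors summed to 391 to 574 CPM in cold and 597 to 752 CPM in thermoneutral libraries. Of these 12 markers 3 were higher and 4 lower, against 30.2% and 30% of all genes. Of 44 matrix genes 8 rose and 16 fell. The fibrillar collagen Col3a1 had 64.4, 122, 92.4, 36.9 and 33.4 CPM in cold and 424, 305, 280.3, 272 and 164 CPM in thermoneutral libraries (log2 -2.05 ± 0.39), whereas the basement membrane chains Col4a1 (log2 0.999 ± 0.13) and Col4a2 (log2 1.25 ± 0.13), elastin (Eln, log2 2.13 ± 0.22) and the crosslinking enzyme Loxl1 (log2 2.95 ± 0.20) rose. The part of cell composition in these changes was not tested.

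In interferon response and antigen presentation 16 of 31 genes fell and 0 rose (median log2 -0.84), and 0 were higher at an unadjusted p under 0.05 in edgeR, 0 with DESeq2 and 0 with limma-voom. Irf1 had 10.6, 13.3, 8.75, 9.04 and 8.01 CPM in cold and 32.6, 21.8, 24.1, 24.9 and 30.6 CPM in thermoneutral libraries (log2 -1.43 ± 0.15) and Gbp7 fell 2.66-fold. Cold replicate 2, the library with high macrophage markers, stood apart here: for Cd74, the invariant chain of antigen-presenting cells, it had 251 CPM, against 25.5 to 51.2 CPM in the other cold and 105 to 159.9 CPM in thermoneutral libraries. Without that library 30 of the genes fell, and Cd74 changed by -1.72 ± 0.21 (adjusted p = 4.74e-05), against -0.66 ± 0.61 with it (adjusted p = 0.377). Of 14 lymphocyte markers 5 fell, or 13 without that library, and 0 rose, with 0 higher at an unadjusted p under 0.05 in edgeR, 0 with DESeq2 and 0 with limma-voom. They summed to 19.0 CPM in the same cold library and 2.40 to 3.63 CPM in the other 4 cold libraries, against 8.14 to 24.7 CPM in thermoneutral ones, so that without cold replicate 2 the sums did not overlap. Their part in the fall of the interferon and antigen presentation genes was not tested. Of 20 genes of nerve growth 10 fell and 4 rose. Ntrk3, the receptor for neurotrophin 3, had 2.78, 9.69, 5.75, 4.43 and 10.7 CPM in cold and 319, 350.2, 249.9, 330.3 and 234 CPM in thermoneutral libraries (log2 -5.48 ± 0.39), the steepest fall of any gene named here, and Slc22a3, which clears noradrenaline from the tissue, fell 2.50-fold. Of 38 ion channel genes 8 rose and 7 fell, or 4 fell without cold replicate 3 or with no low-count filter. The pressure-gated channel gene Piezo1 rose 3.02-fold, and Ano1, a calcium-activated chloride channel, had 5.94, 8.46, 10.9, 8.98 and 12.6 CPM in cold and 60.9, 72.2, 45.9, 54.8 and 59.1 CPM in thermoneutral libraries (log2 -2.64 ± 0.19). The tachykinin receptor gene Tacr2 had 4.28, 6.95, 8.21, 15.7 and 18.2 CPM in cold libraries and at most 0.0868 CPM in a thermoneutral one.

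Among genes outside these groups, Gmpr, a reductase of guanine nucleotides, had 1941, 1484, 1776, 2159.8 and 3199.7 CPM in cold and 43.0, 62.1, 64.9, 45.4 and 66.4 CPM in thermoneutral libraries (log2 5.23 ± 0.24, adjusted p = 3.53e-08), one of the 10 largest gains in CPM. Car3, a carbonic anhydrase of adipocytes and muscle, had 296, 520.3, 520.0, 484 and 386 CPM in cold and 3608, 2623, 2805, 2547 and 2637 CPM in thermoneutral libraries (log2 -2.69 ± 0.17), one of the 10 largest losses, as was Coq8a, which supports ubiquinone synthesis (log2 -1.49 ± 0.26). The kinase gene Sgk2 had 96.4, 85.0, 73.7, 79.8 and 66.4 CPM in cold and 0.132, 0.238, 0.153, 0.208 and 0.698 CPM in thermoneutral libraries (log2 8.21 ± 0.37). The cytochrome P450 gene Cyp2b10 had 241, 248, 398, 674 and 559 CPM in cold libraries and at most 1.24 CPM in a thermoneutral one. Acsm3, a medium-chain acyl-CoA synthetase, had 3.99, 7.46, 9.45, 9.55 and 8.36 CPM in cold and 149, 165, 125, 89.4 and 161 CPM in thermoneutral libraries (log2 -4.15 ± 0.27), and Sorcs2, a sorting receptor, 2.67, 6.23, 6.60, 6.77 and 16.7 CPM in cold and 179, 115, 96.1, 116 and 60.7 CPM in thermoneutral libraries (log2 -3.87 ± 0.49). None of these groups overlapped.

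To compare depots, the cold effect in BAT was set against that in inguinal white fat (iWAT), in a model of all 40 libraries. That depot had 5 cold and 5 thermoneutral libraries. Nothing says whether BAT and iWAT libraries came from the same mice, and the model took all libraries as independent. The 2 effects differed for 3920 of 20756 genes (18.9%), with the effect in BAT higher for 1716 (8.27%) and lower for 2204 (10.6%). Levels in this paragraph are scaled over all 4 tissues and so differ from those above. Ucp1 averaged 14874 ± 1656 CPM in cold and 802 ± 291 CPM in thermoneutral BAT, and 427 ± 397 CPM in cold and 1.87 ± 2.09 CPM in thermoneutral iWAT, so its log2 effect was lower in BAT although its level was far higher there (difference -3.62 ± 1.05, adjusted p = 0.014). Cpt1a averaged 106 ± 14.6 CPM in cold and 16.5 ± 1.99 CPM in thermoneutral BAT, and 32.5 ± 9.34 CPM in cold and 42.2 ± 6.87 CPM in thermoneutral iWAT (difference 3.07 ± 0.24, adjusted p = 5.94e-11). Gk averaged 1301 ± 107 CPM in cold and 24.7 ± 5.10 CPM in thermoneutral BAT, and 59.0 ± 37.4 CPM in cold and 4.96 ± 0.303 CPM in thermoneutral iWAT (difference 2.15 ± 0.50, adjusted p = 0.00221).

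Angptl4 separated the depots, with 135 ± 25.3 CPM in cold and 726 ± 173 CPM in thermoneutral BAT and 287 ± 145 CPM in cold and 244 ± 115 CPM in thermoneutral iWAT (difference -2.66 ± 0.57, adjusted p = 9.31e-04). Lep fell in BAT while averaging 393 ± 197 CPM in cold and 293 ± 152 CPM in thermoneutral iWAT (difference -3.72 ± 0.72, adjusted p = 2.60e-04). The effect was also lower in BAT for Pdk4 (-1.94 ± 0.55, adjusted p = 0.0103) and the cold-inducible RNA-binding protein gene Cirbp (-1.22 ± 0.23, adjusted p = 1.66e-04), and higher for Ppargc1a (1.56 ± 0.53, adjusted p = 0.0362). Cirbp averaged 11.9 ± 2.12 CPM in cold and 25.4 ± 4.79 CPM in thermoneutral BAT, and 37.2 ± 2.72 CPM in cold and 34.1 ± 6.76 CPM in thermoneutral iWAT. The call for Ppargc1a was lost with no low-count filter (adjusted p = 0.0716) and in 12 of 20 repeats that left out 1 library, with adjusted p between 0.0272 and 0.0796 over the repeats. For Dio2 (difference -1.14 ± 0.74, adjusted p = 0.332), Elovl3 (0.69 ± 1.24, adjusted p = 0.799), Fasn (-1.18 ± 0.65, adjusted p = 0.233) and the ATP-Mg carrier gene Slc25a25 (-1.01 ± 0.66, adjusted p = 0.334) the difference did not pass, which does not show that the depots responded alike.

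**Figure D5:**
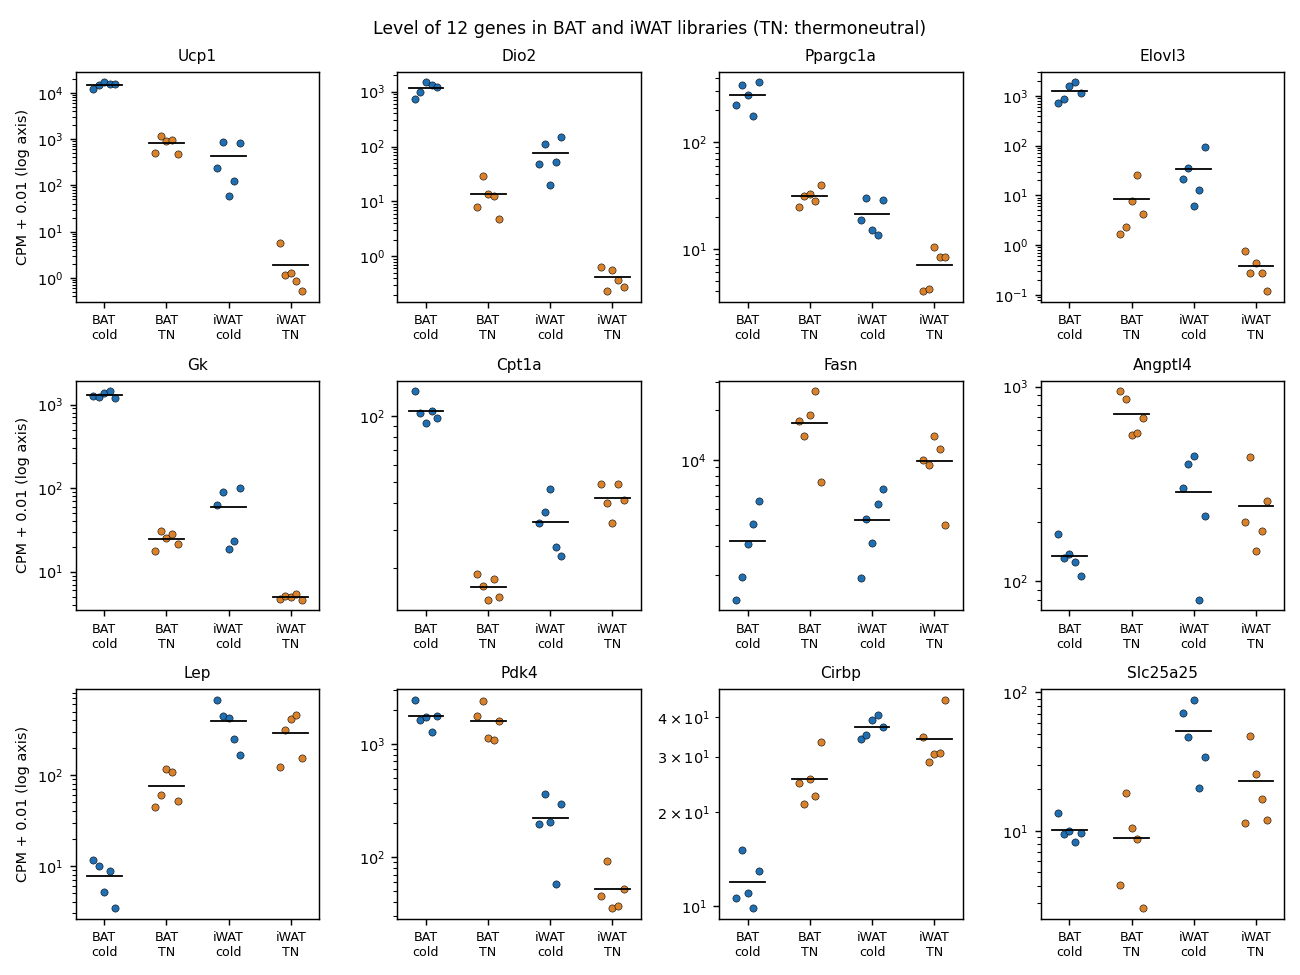
Level (CPM scaled over all 4 tissues, log axis with 0.01 added for drawing) of 12 genes in BAT and iWAT, cold left of thermoneutral within each tissue, with 1 point a library and a bar at the mean. Angptl4 averages 135 ± 25.3 CPM in cold and 726 ± 173 CPM in thermoneutral BAT, and 287 ± 145 CPM in cold and 244 ± 115 CPM in thermoneutral iWAT.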

How the data were processed

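RNA of snap-frozen tissue was extracted with a NucleoSpin kit and made into TruSeq RNA v2 libraries, per the labels' protocols. That kit does not mark strand, so reads of a gene and of an overlapping or antisense gene cannot be told apart. The authors deposited whole-number counts per gene symbol, called raw counts per the labels, and these were treated as rounded expected counts because RSEM is named. Per the submitters' processing notes, RSEM 1.3.0, STAR 2.7.8a, DESeq and FastQC were used, with GRCm38 and GRCm39 as builds. The role of each build and tool, and the annotation, are not given in the sources used here.

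The table held 260093 lines for 53863 symbols, because a symbol shared by several genes stood on repeated lines. For these 78 symbols, the repeats were divided out and the genes summed, and these took 0.325 to 0.654% of the counts of a BAT library. All 40 columns of counts were mapped to a sample by title. BAT libraries held 50272736 to 84697511 counts, and their log2(CPM + 1) values correlated at 0.977 to 0.993 within a group and 0.928 to 0.951 between cold and thermoneutral libraries, across genes. The first principal component held 62.3% of the variance and the second 13.9%.

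BAT was tested with edgeR 4.0.16 (R 4.3.3) on its 10 libraries: TMM scaling, filterByExpr with a minimum count of 10 and a minimum total of 15, robust quasi-likelihood F-tests and Benjamini-Hochberg adjustment over all genes, with a threshold of 0.05. The standard error is the log2 change divided by the square root of F. The biological coefficient of variation was 24.6%. On simulated counts for this comparison, with 15288 genes of which 200 were changed, 86% of the 2-fold and 94% of the 4-fold changes were recovered, and 6.25% of the calls were false. The changed genes were drawn from those above 1 CPM. They were far fewer than the 9200 called in the data, so these rates need not hold for so broad a change. The depots were compared by the difference of the cold effects in BAT and iWAT in 1 model of 8 group means over 40 libraries. Epididymal fat and liver entered the spread of that model and were not analysed further here. DESeq2 1.42.0, limma 3.58.1, other scalings and filters, a muscle covariate, a replicate block and leaving out each library were alternatives.

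Levels were CPM scaled by TMM. Members were described through 47 gene lists, of which 1369 distinct genes had a row and 1313 were tested, and 11 lists of cell type markers. The comparison, the lists and the genes named were chosen with earlier results of these data known. The genes named came from 6 sources: the called genes of largest change without overlap and at least 10 CPM, the called members of smallest p or largest change in each list, key members of each list whatever their result, the largest gains and losses in CPM, the most abundant marker of each list, and 12 genes for the comparison of depots. Promoter windows were the 250 bases before RefSeq starts on GRCm38.p6. A few genes that the rule for names would have named are not reported here.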

Additional observations from a re-analysis of the deposited data

Results flagged for a closer look

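Of 162 groups of 5 libraries examined, 17 had 1 library further from the other 4 than Dixon's critical value of 0.71 allows, and chance alone would flag about 1 group in 20. Cold replicate 1 lay alone above the other cold libraries for Acot1 (61.7 CPM), Gdf15 (52.8 CPM) and Plin2 (2197 CPM), and alone below them for Tkt (621 CPM). Cold replicate 5 was highest among cold libraries for Cycs (1780.3 CPM) and Slc2a5 (6.04 CPM). Cold replicate 2 was highest for the macrophage marker sum (339 CPM) and the lymphocyte marker sum (19.0 CPM).

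Among thermoneutral libraries, replicate 1 stood apart for Car3 (3608 CPM) and the neutrophil marker sum (6.06 CPM), replicate 2 for Egr1 (82.8 CPM) and Gadd45g (20.8 CPM), and replicate 4 for Elovl3 (20.4 CPM). Replicate 5 was low for Gpd1 (2164 CPM) and high for Sgk2 (0.698 CPM), Slc7a8 (6.86 CPM) and the lymphocyte marker sum (24.7 CPM).

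The cold effect differed between BAT and iWAT by a test of the difference itself for 8 of the 12 genes compared. On the log2 scale, the effect in BAT minus that in iWAT was 3.07 for Cpt1a, 2.15 for Gk and 1.56 for Ppargc1a. The call for Ppargc1a was lost with no low-count filter and in 12 of 20 repeats without 1 library. The difference was -3.72 for Lep, -3.62 for Ucp1, -2.66 for Angptl4, -1.94 for Pdk4 and -1.22 for Cirbp.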

How the results depend on the processing

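The count of genes called in BAT, 9200, lay between 7966 (at least 1 CPM in 5 libraries) and 9453 (no low-count filter) under other tests, scalings, filters and a muscle covariate, and between 8647 and 9554 when 1 library was left out. Genes lower by more than 2-fold numbered 1257 with at least 1 CPM in 5 libraries, against 1954, since fewer genes were then tested, and 1859 to 2429 when 1 library was left out, the highest without cold replicate 2. Of the 205 genes said here to have risen or fallen, 203 passed in the same direction under every alternative that gave them an adjusted p. The exceptions were Thra, without cold replicate 1, and Acacb, without thermoneutral replicate 1, 3 or 5 or cold replicate 4. The mitochondrial transcripts were not tested where their genome was left out, and DESeq2 gave no adjusted p for Gdf15. Signs turned for genes that had not passed. Dgat2 ran from -0.126 (without cold replicate 3) to 0.086 (without cold replicate 1), Psat1 from -0.036 (without cold replicate 1) to 1.33 (without thermoneutral replicate 4), Pparg from -0.19 (without thermoneutral replicate 2) to 0.035 (without thermoneutral replicate 5), Ppargc1b from -0.067 to 0.18 (without thermoneutral replicates 3 and 5), and Prdm16 from -0.045 to 0.24 (without thermoneutral replicates 3 and 2). Ppargc1b was at -0.0065 with at least 1 CPM in 5 libraries. Causes were not tested. The share of all promoters with the full cyclic AMP response element was 2.22% within 100 bases of the start, against 2.83% within 250, a shorter window. The difference between depots was called for 3920 genes, 4741 with BAT and iWAT libraries alone, 4627 with DESeq2, 3164 with no low-count filter and 3419 to 3803 when 1 library was left out. Without the filter the call for Ppargc1a was lost (adjusted p = 0.0716). Replicate numbers did not pair the libraries: cold and thermoneutral libraries of the same number deviated together with correlations of -0.142, -0.163, -0.000692, 0.486 and 0.271, and 1 of 5 matched its own number best. With the replicate number as a block 8609 genes were called in BAT (4307 higher and 4302 lower). Between depots, with that number as a block within each tissue, 3022 were called. The calls for Ucp1 (-3.28, adjusted p = 0.0894) and Ppargc1a (1.51, adjusted p = 0.0628) were then lost in edgeR. No block linked BAT and iWAT libraries of the same number. Under the block in BAT, members lower were 2 in glycerol use and triglyceride synthesis, 2 in complexes III, IV and V and 2 in endoplasmic reticulum folding. There, 5 cytosolic ribosomal protein genes were higher. Genes below the count filter have few reads and were left out of the counts reported. Without the filter 1757 genes were higher and 2571 lower by more than 2-fold, against 1472 and 1954 with it.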

Other observations

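Marker genes of other cell types were also present, and those of hepatocytes are described above as well. Erythroid genes summed to 866 to 2134 CPM in cold and 728 to 1765 CPM in thermoneutral libraries. Schwann cell and neuron genes summed to 133 to 193 CPM in cold and 126 to 185 CPM in thermoneutral libraries, with 1 higher and 3 lower of 7 tested (median log2 -0.41). Myelin basic protein, Mbp, averaged 29.6 CPM in cold and 39.5 CPM in thermoneutral BAT, whereas S100b, a calcium-binding protein also found in adipocytes, averaged 67.0 CPM in cold and 39.2 CPM in thermoneutral BAT. Neutrophil genes summed to at most 2.38 CPM in a cold library and 6.06 CPM in a thermoneutral one. Mesothelial genes summed to at most 3.48 CPM in a cold library and 3.63 CPM in a thermoneutral one. Among hepatocyte genes, Cyp2e1, a cytochrome P450 that fat also expresses, averaged 101 CPM in cold and 40.1 CPM in thermoneutral BAT, while albumin (Alb), chosen after its values were seen, averaged 0.676 CPM in cold and 13.2 CPM in thermoneutral BAT.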
